A study of Mus musculus with 6 samples.

Results

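Mature osteoblast and osteocyte markers were followed in primary mouse bone marrow stromal cells (BMSCs), a plastic-adherent marrow fraction with osteogenic capacity. The set was chosen by symbol, with earlier results of these data known. It holds 9 genes: Sparc, Ibsp, Dmp1, Mepe, Bglap, Bglap2, Pth1r, Phex and Ifitm5. Of these, 8 had a row among the 12830 genes of the table, and the filter on low counts removed none of the 12830. Mepe is not analysed here. The control group, called FF, came from mice with 2 floxed Rras2 alleles (Rras2f/f). The knockout group, called cKO, came from mice whose genotype is given as Prx1;Rras2f/f. The Prx1 promoter is used to delete floxed genes in limb mesenchyme, so blood cells in the same culture are not its target. All donors were 8 weeks old, all cultures were under osteogenic induction at 2 days, and each group had 3 libraries, called FF-1 to FF-3 and cKO-1 to cKO-3. Whether a library came from 1 animal or from pooled animals is not given in the sources used here, so the p-values rest on library-to-library spread that may be technical.

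An osteoblast changes its products as it matures. It first lays down a collagen matrix, then adds acidic proteins that bind calcium and collagen, and only late makes osteocalcin. Cells that become enclosed in the matrix turn into osteocytes, which express Dmp1, Mepe and Phex and later Sost and Fgf23. Sparc, by contrast, is made by many matrix-forming cells, and Pth1r already marks cells early in the lineage.

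Library totals over the 12830 genes lay between 31934714 and 37561452 counts. Rras2, the targeted gene, had 49.7, 50.1 and 44.7 CPM (counts scaled to the library total, with edgeR's TMM factors) in FF-1, FF-2 and FF-3, the order used throughout. The cKO libraries had 26.7, 29.0 and 26.8 CPM. Every cKO library was lower, and Rras2 fell by 0.81 on the log2 scale (adjusted p from edgeR = 1.08e-05). Stromal genes were abundant in FF, with Col1a1 at 8159 ± 367 and Cxcl12 at 3483 ± 98.8 CPM (SD, n = 3). The macrophage gene Lyz2 was higher, at 15801 ± 654 CPM, and the 7 macrophage markers measured summed to 20198 to 21551 CPM in FF.

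The markers spanned a wide range of the table when levels were compared per length, on the deposited FPKM scale, which divides by length and library size. In FF, Sparc stood at 1435 ± 33.6 FPKM (SD, n = 3), rank 18 of 12830 genes. Ibsp followed at 420 ± 26.3 FPKM (rank 109) and Pth1r at 127 ± 2.16 FPKM (rank 419). Bglap2 had 12.7 ± 1.31 FPKM and Bglap 11.5 ± 0.959 FPKM, and these neighbours overlapped between libraries. Below them came Phex at 3.81 ± 0.294, Ifitm5 at 2.40 ± 0.210 and Dmp1 at 1.12 ± 0.177 FPKM, ranks 9503, 10499 and 11589, with no overlap between successive genes. Sparc, Ibsp and Pth1r were thus abundant, Bglap2 and Bglap lay in the middle of the table (ranks 5292 and 5686), and Phex, Ifitm5 and Dmp1 lay lower. How reads matching both Bglap and Bglap2 were counted is not given in the sources used here, so the levels and ranks of these genes are uncertain. In cKO the order was the same down to Bglap2. There Bglap2, Phex, Bglap and Ifitm5, at 4.93 ± 3.76, 3.43 ± 0.642, 3.11 ± 2.09 and 2.46 ± 0.124 FPKM, overlapped from each gene to the next, and Dmp1 was again last at 0.754 ± 0.153 FPKM.

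**Figure D1:**
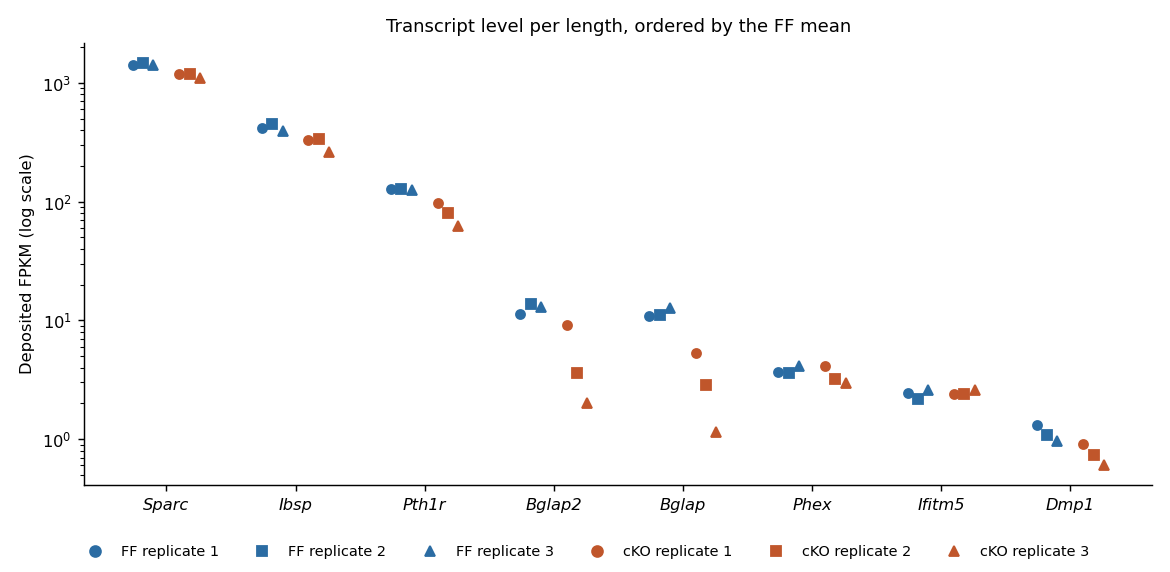
Deposited FPKM of the 8 markers in each library, on a log axis, ordered by the FF mean. Blue symbols are FF and orange symbols cKO libraries; Sparc lies at 1435 FPKM and Dmp1 at 1.12 FPKM in FF, and the cKO points of Bglap and Bglap2 are the most spread.

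In cKO, 7 of the 8 markers had a negative log2 fold change, and for 6 of them, Sparc, Ibsp, Dmp1, Bglap, Bglap2 and Pth1r, every cKO library lay below every FF library. Over all genes the groups did not overlap in that direction for 11.2%. Only 1 of the 8, Sparc, passed the test across all genes (edgeR quasi-likelihood test, adjusted p below 0.05), where 4.84% of all genes were called. The median log2 fold change of the 8 was -0.50, beside 0.00060 over all genes. Bglap and Bglap2, which are alike in sequence, are counted separately here, though their counts may not be independent. In bulk RNA, fewer cells of a type and less RNA per cell cannot be told apart.

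Sparc encodes osteonectin, a secreted protein that binds collagen and calcium (ENSMUSG00000018593, chromosome 11 from 55394500 to 55423183, minus strand, mm10). It had 3524, 3422 and 3407 CPM in FF, and 2775, 2812 and 2588 CPM in cKO. The FF libraries lay within 1.03-fold of each other, and the lowest of them was above the highest cKO library. The fitted log2 difference for Sparc was -0.34 (SE 0.0501), so it fell 1.27-fold, adjusted p 0.00107 in edgeR. Its adjusted p stayed between 0.000233 and 0.0118 when any 1 library was left out. The smallest fold change among the 6 non-overlapping markers was thus the one that passed.

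Ibsp, Dmp1 and Mepe are members of a family of acidic, integrin-binding phosphoproteins of bone and tooth matrix (SIBLING proteins) whose genes lie side by side on chromosome 5. Between Dspp at 104170712 and the end of Spp1 at 104441050, all on the plus strand of mm10, lie Dmp1 (104202613 to 104214102), Ibsp (104299171 to 104311469) and Mepe (104325329 to 104338611). Ibsp encodes bone sialoprotein, which binds hydroxyapatite. It had 958, 1000 and 887 CPM in FF and 751, 765 and 596 CPM in cKO. All cKO libraries were lower, and cKO-3 was the lowest by a wide gap. Its log2 fold change of -0.43 had a 95% interval from -0.68 to -0.18 and did not pass (edgeR adjusted p = 0.0886). It passed in DESeq2 and limma-voom (adjusted p = 0.00869 and 0.0397) and in edgeR without cKO-3 (0.00651).

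Dmp1 encodes dentin matrix protein 1, an osteocyte phosphoprotein needed for mineralised matrix. Its counts were low, 140, 123 and 93 in FF and 97, 78 and 68 in cKO, or 4.05, 3.25 and 2.90 CPM against 2.77, 2.25 and 1.87 CPM. The groups were separated narrowly, since FF-3 and cKO-1 lay close together. The count of 93 in the former has an exact Poisson interval of 75.1 to 114 and the count of 97 in the latter 78.7 to 118, both covering counting error only. The log2 fold change of -0.57 (95% interval -1.03 to -0.10) did not pass (edgeR adjusted p = 0.181), nor did it in DESeq2, limma-voom or with any library left out.

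Spp1, the osteopontin gene at the far end of the same cluster, was on the other side of 0. It had 1589, 1472 and 1411 CPM in FF and 1531, 1698 and 1797 CPM in cKO, with overlap between the groups. Its log2 fold change was 0.17 (edgeR adjusted p = 0.171, and 0.0118 without cKO-1). Which cells of the culture, macrophages included, made the Spp1 RNA was not tested. Fam20c, the secretory kinase that phosphorylates these proteins, rose by 0.26 on the log2 scale (edgeR adjusted p = 0.0321). Omitting FF-1, FF-2, cKO-2 or cKO-3 lost that call (adjusted p = 0.129, 0.0757, 0.128 and 0.0558), as did limma-voom (0.0683).

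Osteocalcin, a small protein that binds mineral after vitamin K-dependent carboxylation, is made in the mouse by Bglap and Bglap2, which lie next to each other on the minus strand of chromosome 3 (88383501 to 88384464 and 88377736 to 88378699, mm10). A related gene, Bglap3, is not analysed here. The coding parts of the 2 transcripts in GENCODE M21 are shown whole, because their likeness decides how far reads can be assigned to either gene. Both run from 5′ to 3′ without the stop codon, and capitals mark the bases at which they differ.
Bglap: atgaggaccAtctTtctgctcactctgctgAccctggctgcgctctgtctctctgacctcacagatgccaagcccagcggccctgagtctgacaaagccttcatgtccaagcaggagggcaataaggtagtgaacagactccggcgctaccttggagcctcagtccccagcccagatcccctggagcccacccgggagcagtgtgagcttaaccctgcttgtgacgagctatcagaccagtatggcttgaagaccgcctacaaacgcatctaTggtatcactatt
Bglap2: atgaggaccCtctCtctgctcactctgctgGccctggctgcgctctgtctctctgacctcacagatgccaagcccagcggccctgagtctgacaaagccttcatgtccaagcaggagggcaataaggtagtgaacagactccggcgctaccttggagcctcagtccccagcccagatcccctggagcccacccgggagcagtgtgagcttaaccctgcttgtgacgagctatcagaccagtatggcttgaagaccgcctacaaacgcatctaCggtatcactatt
Counted from 1 at the start codon, with the base of Bglap first, the differences are A10C, T14C, A31G and T273C. The 285 coding bases are 98.6% identical, and 241 bases in a row do not differ. How the authors' counting treated reads that match both genes is not given in the sources used here, so the split between them is uncertain. Their sum does not depend on that split as long as reads matching both were counted.

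Both osteocalcin genes had the largest differences of the set and the largest spread among cKO libraries. Bglap had 184, 199 and 193 counts in FF and 90, 48 and 21 in cKO, which is 5.32, 5.25 and 6.02 CPM against 2.57, 1.38 and 0.578 CPM. The highest cKO library lay far below the lowest FF library. The FF libraries lay within 1.15-fold of each other, whereas the highest and lowest cKO libraries differed 4.44-fold. The counts of 90 and 48 have exact Poisson intervals of 72.4 to 111 and 35.4 to 63.6, which do not meet, so that spread is wider than counting error. For Bglap the fitted value was -1.87 on the log2 scale with a 95% interval from -3.07 to -0.68, or 3.67-fold lower, and it did not pass (edgeR adjusted p = 0.116). DESeq2 and limma-voom called it (adjusted p = 0.0178 and 0.0230), as did edgeR without cKO-1 or cKO-3 (0.000188 and 0.00391).

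Bglap2 had 205, 267 and 211 counts in FF and 167, 65 and 39 in cKO, or 5.93, 7.05 and 6.58 CPM in FF and 4.76, 1.87 and 1.07 CPM in cKO. Here cKO-1 lay just under the FF range and the other cKO libraries far below it. Its log2 fold change of -1.34 had an interval that includes 0 (-2.88 to 0.19; edgeR adjusted p = 0.347). It passed without cKO-1, at -2.15 (edgeR adjusted p = 2.83e-05), and in no other setting tried. Summed over both genes, osteocalcin had 389, 466 and 404 counts in FF and 257, 113 and 60 in cKO. The sum had a log2 fold change of -1.56 and did not pass (edgeR adjusted p = 0.292). Bglap took 42.7% to 47.8% of the pair in FF and 35.0% to 42.5% in cKO, ranges that nearly meet.

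The upstream sequence is shown for Bglap, the marker with the largest fold change. It is the 250 bases before the transcript start from RefSeq (GRCm38.p6), chr3:88384467-88384716 on the minus strand, written 5′ to 3′ on the strand of the gene. Capitals mark ACCACA, the core of the site of RUNX factors such as Runx2, and TATAAA, the TATA box.
Bglap: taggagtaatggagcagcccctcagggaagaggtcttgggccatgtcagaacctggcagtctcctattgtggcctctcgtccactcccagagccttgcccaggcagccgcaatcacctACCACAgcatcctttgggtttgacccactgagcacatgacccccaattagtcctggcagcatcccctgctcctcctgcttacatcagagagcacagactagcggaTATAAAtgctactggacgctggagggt
Bglap holds 1 ACCACA, starting 132 bases before the transcript start, and 1 TATAAA, starting 27 bases before it. Ibsp holds 1 TATAAA match, on the reverse strand 28 bases before the start, and the windows of Sparc, Pth1r, Phex and Ifitm5 hold neither motif. RefSeq gave 11 windows for 8 of the 9 listed genes, with more than 1 for Dmp1 and Pth1r and none for Bglap2. ACCACA on either strand was in 1 window each of Bglap, Dmp1 and Mepe, and in 4614 of all 32851 windows of this length. CCAAT, the CCAAT box, was in windows of Bglap, Dmp1, Ibsp, Mepe and Pth1r and in 33.8% of all. TATAAA on either strand was in those of Bglap, Ibsp and Mepe and in 12.4% of all. TGANTCA, the AP-1 site, was in no window of the markers and in 6.75% of all. These matches describe letters and are not evidence of binding.

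Pth1r, the receptor for parathyroid hormone and its related peptide, signals through the stimulatory G protein and cyclic AMP (chromosome 9 from 110722085 to 110747145, minus strand, mm10). It had 309, 298 and 291 CPM in FF, a range of 1.06-fold. In cKO it had 227, 192 and 153 CPM, a range of 1.48-fold, with all values below FF. A log2 fold change of -0.65, or 1.57-fold lower (95% interval -1.08 to -0.23), did not pass (edgeR adjusted p = 0.138). Pth1r passed in DESeq2 and limma-voom (adjusted p = 0.00208 and 0.0193) and in edgeR without cKO-1 or cKO-3 (0.0294 and 0.000955). It shares 95 exonic bases with Myl3 on the opposite strand, and the strand setting of the counts is not given in the sources used here.

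Of the list of PTH receptor signalling, which also holds the related receptor components Calcrl and Ramp2, 0 of 13 measured genes passed in edgeR, DESeq2 or limma-voom (2 at an unadjusted p below 0.05 in edgeR). Without cKO-2, edgeR called 1 lower, the nuclear receptor gene Nr4a2 (adjusted p = 0.0468), named after its values were seen. Gnas, the stimulatory G protein subunit, was at 929 ± 13.7 against 909 ± 13.3 CPM (SD, n = 3), and Prkar1a, a regulatory subunit of protein kinase A, 414 ± 8.51 and 422 ± 19.04 CPM. The median log2 fold change of that list was -0.034.

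Phex, an endopeptidase of the osteoblast and osteocyte membrane whose loss causes phosphate wasting, is on the X chromosome (157162075 to 157415312, minus strand, mm10). It had 23.4, 23.5 and 27.1 CPM in FF and 27.9, 21.1 and 20.1 CPM in cKO. The groups overlapped, because cKO-1 was the highest of the 6 libraries. A log2 fold change of -0.10 came with a 95% interval from -0.37 to 0.18 (edgeR adjusted p = 0.757), and no setting called it.

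Ifitm5 encodes a small membrane protein largely restricted to osteoblasts, in which a recurrent mutation causes a form of brittle bone disease (chromosome 7 from 140948958 to 140950291, minus strand, mm10). It had 72, 68 and 69 counts in FF and 70, 71 and 81 in cKO, or 2.01 ± 0.189 and 2.09 ± 0.124 CPM (SD, n = 3). The groups overlapped, and the log2 fold change of 0.06 had a 95% interval from -0.41 to 0.53 (edgeR adjusted p = 0.929). Ifitm5 shares 227 exonic bases on the same strand with the gene model Gm45717, which has a row of its own, so its counts are uncertain.

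**Figure D2:**
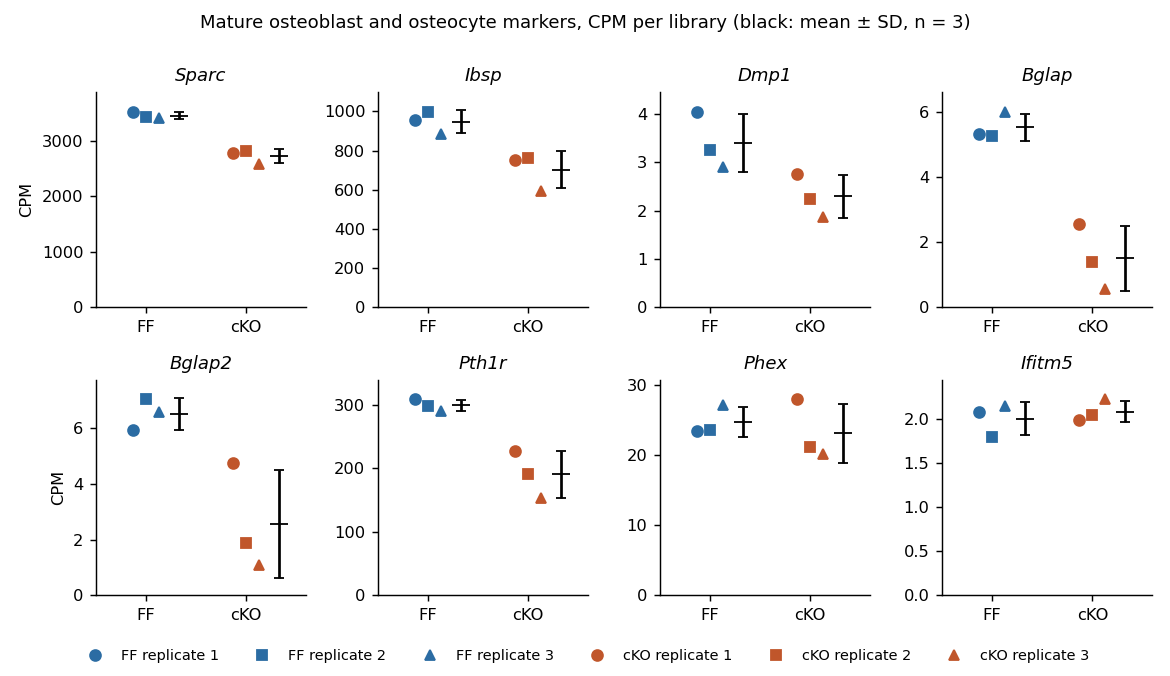
CPM of each marker in every library on axes that start at 0, with the mean and SD of 3 libraries in black. Sparc, Ibsp, Dmp1, Bglap, Bglap2 and Pth1r have all cKO libraries (orange) below all FF libraries (blue), while Phex and Ifitm5 overlap; cKO-3 (triangles) is the lowest cKO library for every marker except Ifitm5.

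The cKO libraries differed among themselves in the same direction for most markers. cKO-3 was the lowest of the cKO libraries for 7 of the 8, counting Bglap and Bglap2 separately, where 32.5% of all genes had it lowest. The exception was Ifitm5, for which it was the highest. cKO-1 was the highest cKO library for Bglap, Bglap2, Dmp1, Phex and Pth1r, and cKO-2 for Sparc and Ibsp. Relative to the group mean, the SD in cKO was 66.2% for Bglap and 75.5% for Bglap2, against 7.61% and 8.60% in FF. For Pth1r it was 19.4% against 3.06%, and for Sparc 4.41% against 1.84%. Rras2, measured over all cells of the culture together, was at 26.7, 29.0 and 26.8 CPM in cKO. Whether the degree of deletion goes with this spread was not tested.

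The number of markers called changed with the cKO libraries included. Leaving out cKO-1 or cKO-3 raised the count from 1 to 4, all lower, where 4.92% and 1.61% of all genes were called lower in those fits. Without cKO-1 the 4 were Sparc, Pth1r, Bglap and Bglap2, and without cKO-3 they were Sparc, Pth1r, Bglap and Ibsp. DESeq2 and limma-voom also called 4, namely Sparc, Pth1r, Ibsp and Bglap, where 3.85% and 2.00% of all genes were called lower. The authors' deposited adjusted p-values of these 4 were 2.00e-12, 0.00208, 0.00870 and 0.0178. For Pth1r, Ibsp and Bglap they nearly equal those of the DESeq2 fit on the same counts, so they are not a separate result. A fit with the replicate number as a block called Sparc and Ibsp, and 3.02% of all genes lower.

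**Figure D3:**
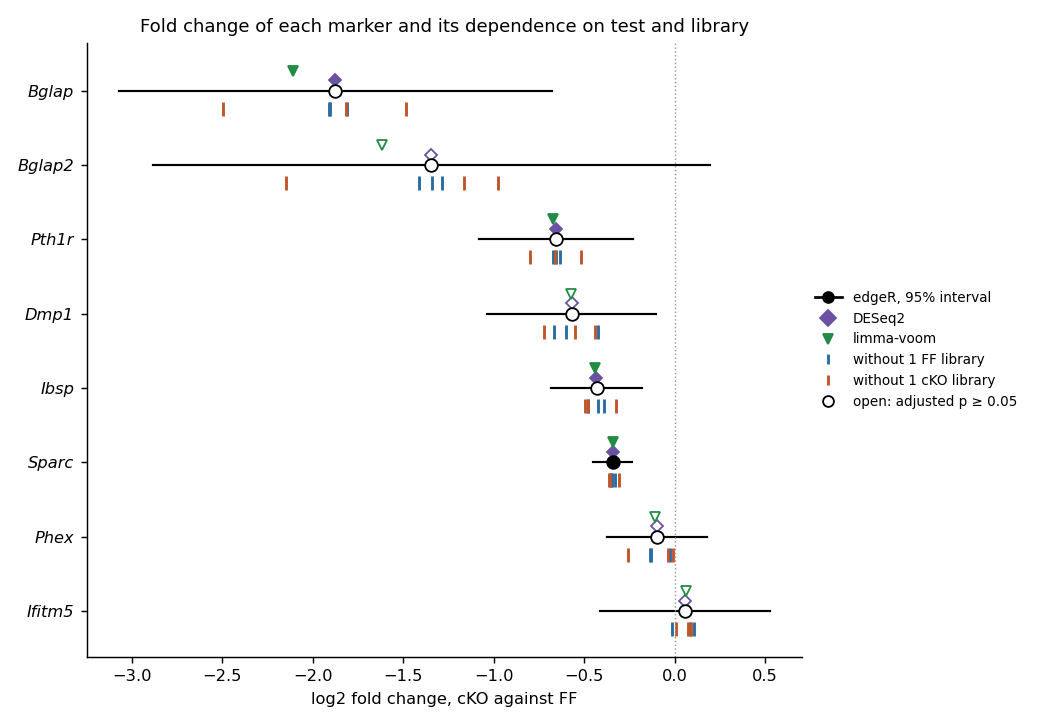
Log2 fold change of each marker in cKO against FF, with the 95% interval of the edgeR fit; filled symbols passed at an adjusted p below 0.05 and open ones did not. Diamonds and triangles above each line are DESeq2 and limma-voom, and ticks below are fits without 1 library; Bglap ranges from -2.50 to -1.48 over these ticks and Sparc from -0.36 to -0.30.

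Other genes with profiles closest to a marker were found by the root mean square difference of log2 CPM, each centred on its own mean over the 6 libraries, among 10781 genes of at least 5 CPM. Of the markers only Sparc, Ibsp, Pth1r and Phex reach that level. For Sparc the nearest were P3h1, a prolyl hydroxylase that modifies collagen, C1qtnf6 and Scd2, at 0.0219, 0.0277 and 0.0300 log2 units. P3h1 fell by 0.38 on the log2 scale (edgeR adjusted p = 0.000656). For Pth1r the nearest was Alpl, the alkaline phosphatase of mineralising cells, at 0.0432, followed by Klf12 and Tmie at 0.04998 and 0.0503. For Ibsp they were Gpc1, Als2cl and Slc7a1, at 0.0454, 0.0523 and 0.0556. Phex was nearest to Bbc3, Adamts7 and Irf4, at 0.0471, 0.0517 and 0.0544. These distances are descriptions over libraries that the groups divide.

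The 50 measured companion genes of the same programme were taken from 63 listed symbols. Of these 50, 11 fell and 3 rose in cKO (edgeR adjusted p below 0.05). Over all genes 2.74% fell and 2.10% rose in that test. The companion lists were chosen with earlier results of these data known, so the excess over those shares is not independent support. The early osteoblast and collagen list had 6 of 11 lower and 0 higher, with a median log2 fold change of -0.50. DESeq2 called 9 of the 11 lower and limma-voom 8, and 10 had an unadjusted p below 0.05 in edgeR. Postn, the periostin gene, fell by 0.50 on the log2 scale (edgeR adjusted p = 0.000319), as did the type I collagen genes Col1a1 (by 0.59) and Col1a2 (by 0.44). Runx2, the transcription factor that commits cells to the osteoblast fate, fell by 0.25 (edgeR adjusted p = 0.0128), and omitting FF-3, cKO-2 or cKO-3 lost the call (0.0740, 0.0538 and 0.0632).

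Alpl and Sp7 had the same kind of spread in cKO as Pth1r. Alpl had 1601, 1531 and 1550 CPM in FF and 1202, 943 and 821 CPM in cKO. Sp7, the osterix transcription factor gene, had 218, 224 and 218 CPM in FF and 168, 130 and 108 CPM in cKO. Neither passed (edgeR adjusted p = 0.117 and 0.158), with log2 fold changes of -0.66 and -0.70. Alpl passed in DESeq2 and limma-voom (0.00217 and 0.0173), and without cKO-1 or cKO-3 (4.95e-07 and 0.0279). Sp7 passed in both of those tests (0.00482 and 0.0202) and without cKO-1 (0.000622).

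**Figure D4:**
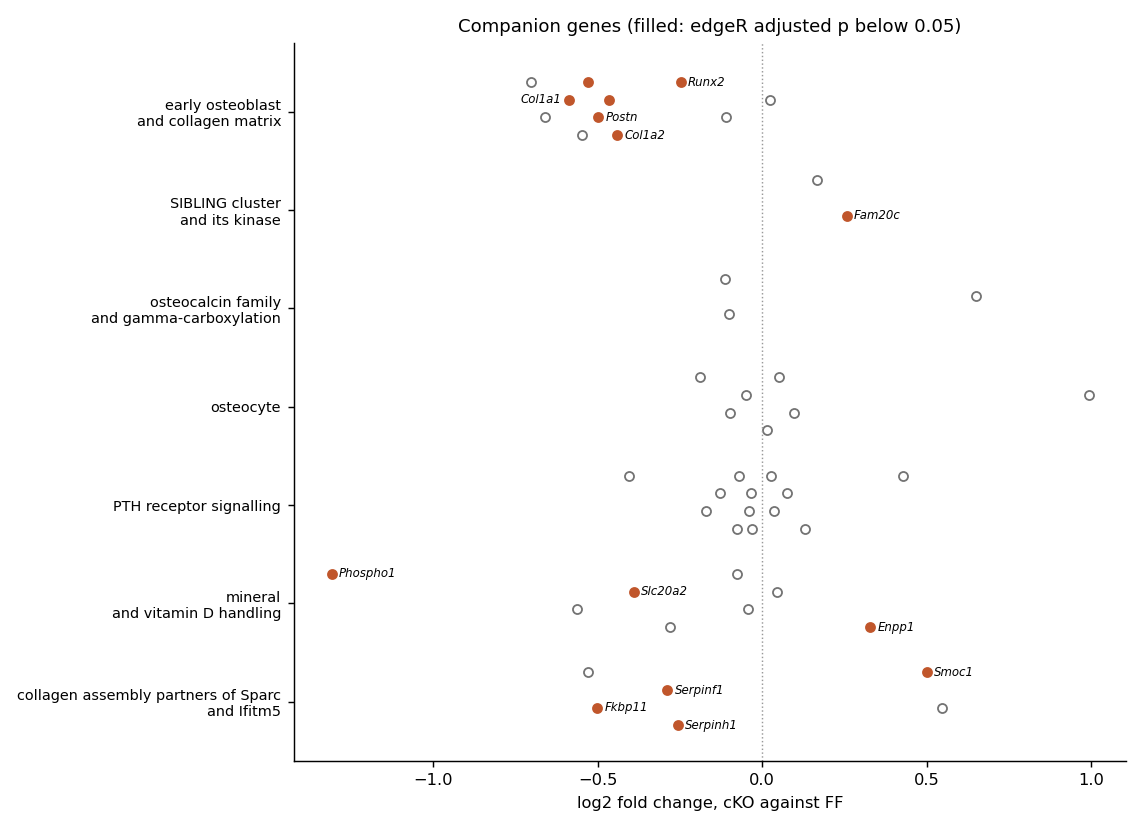
Log2 fold change in cKO against FF of the 50 measured companion genes, by list; filled points passed the edgeR test at an adjusted p below 0.05, with names for those described in the text, and the vertical position within a list only separates points. The early osteoblast and collagen list has 6 filled points, all below 0, and the osteocyte and PTH receptor lists have none.

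The list of collagen assembly partners of Sparc and Ifitm5, which also holds matrix proteins related to Sparc, had 3 of 6 lower and 1 higher. Serpinh1, a collagen chaperone, and Serpinf1, a secreted serpin of bone matrix, fell by 0.26 and 0.29 (edgeR adjusted p = 0.00440 and 0.00235). Fkbp11, a partner of Ifitm5, fell by 0.50 (edgeR adjusted p = 0.0377). Omitting FF-1, FF-2, FF-3, cKO-1 or cKO-3 lost the call (adjusted p = 0.114, 0.107, 0.114, 0.0678 and 0.134), as did limma-voom (0.0576). Smoc1, a matrix protein related to Sparc, rose by 0.50 (edgeR adjusted p = 0.00151). Smoc2, its relative in the same list, named after its values were seen, had all cKO libraries below all FF libraries and a log2 fold change of -0.53. It did not pass (edgeR adjusted p = 0.0774) but did in DESeq2 (0.0123), which called 4 of the 6 lower, and without cKO-3 (0.0250). Genes of mineral and vitamin D handling had 2 of 8 lower and 1 higher. Phospho1, a phosphatase of matrix vesicles, fell by 1.31 (edgeR adjusted p = 0.0144, and 0.0768 and 0.0720 when FF-2 or cKO-2 was omitted), and the phosphate transporter gene Slc20a2 fell by 0.39. Enpp1, which makes the mineralisation inhibitor pyrophosphate, rose by 0.33 (edgeR adjusted p = 0.0172), and omitting FF-1, FF-3, cKO-2 or cKO-3 lost the call (0.0709, 0.0925, 0.0705 and 0.0776).

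The osteocyte list had 0 of 7 measured genes called by edgeR (2 at an unadjusted p below 0.05), 1 by DESeq2 and 0 by limma-voom, and a median log2 fold change of 0.013. Capg, an actin-capping protein gene, was at 366 ± 21.6 against 379 ± 18.7 CPM (SD, n = 3), and Mmp14, a membrane metalloprotease needed for osteocyte processes, 370 ± 19.8 and 324 ± 25.3 CPM. Mmp14 did not pass (edgeR adjusted p = 0.102) but did in DESeq2 (0.0300). The gene of this list with the largest difference, named after its values were seen, was Tnfsf11, which encodes the osteoclast-promoting ligand RANKL. It had 1.24, 1.48 and 0.717 CPM in FF and 2.54, 2.79 and 1.57 CPM in cKO, with every cKO library above every FF library and a log2 fold change of 0.99 that did not pass (edgeR adjusted p = 0.0914). Sost, Fgf23, Dkk1 and Wnt16 of this list are not analysed here. Which cells of the culture made the RNA of the 7 measured genes was not tested, so their levels need not describe osteocytes. The osteocalcin family and carboxylation list had 0 of 3 called by edgeR (1 at an unadjusted p below 0.05), 1 by DESeq2 and 0 by limma-voom. Mgp, a carboxylated inhibitor of calcification, was at 58.5 ± 2.29 against 91.9 ± 20.9 CPM (SD, n = 3), and passed in DESeq2 (adjusted p = 0.0141) and without cKO-1 (2.20e-05) but not in the edgeR fit of all libraries (0.190). Vkorc1, which recycles vitamin K, had 46.7 ± 2.23 and 43.2 ± 2.07 CPM (edgeR adjusted p = 0.401).

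Markers of marrow stroma, which belongs to the cultured fraction itself, and of other cell types moved with the groups too. All 5 marrow stroma genes rose, and their summed level was 3876 to 4078 CPM in FF and 5200 to 5598 CPM in cKO. The count was 4 in limma-voom and when FF-1, FF-2, FF-3, cKO-1 or cKO-2 was omitted, where Foxc1, named after its values were seen, lost its call (adjusted p = 0.0571 to 0.196 over these fits). Cxcl12, the chemokine of niche cells, and the niche transcription factor gene Ebf3 rose by 0.47 and 0.39 on the log2 scale. All 3 measured antibody genes of 6 lymphocyte and plasma cell markers rose (summed 177 to 193 and 289 to 351 CPM), among them Igkc by 0.78 and Jchain by 0.99. Omitting FF-1, FF-2, FF-3 or cKO-2 left 2 of 3, since Ighm, also named after its values were seen, lost its call (edgeR adjusted p = 0.0626, 0.100, 0.0757 and 0.0883). Of 7 macrophage genes 2 rose and 1 fell (summed 20198 to 21551 and 22075 to 22720 CPM). Tyrobp rose by 0.26, a call lost when FF-2, cKO-2 or cKO-3 was omitted (edgeR adjusted p = 0.0976, 0.0615 and 0.0568). Cd14 fell by 0.18, a call lost when FF-1, FF-2, FF-3 or cKO-2 was omitted (0.0778, 0.0704, 0.0924 and 0.0784). Of 6 adipocyte genes 1, Adipoq, rose, by 0.95 (summed 2784 to 2915 and 3054 to 3141 CPM). Chondrocyte, endothelial and osteoclast markers had 0 of 4, 0 of 3 and 0 of 4 called by edgeR (1, 0 and 0 at an unadjusted p below 0.05), 2, 0 and 0 by DESeq2 and 1, 0 and 0 by limma-voom, with summed levels of 323 to 394 and 271 to 308, 23.3 to 35.8 and 23.1 to 29.5, and 626 to 883 and 749 to 929 CPM. The 4 skeletal muscle markers are not analysed here. Most of the marrow stroma, macrophage and adipocyte sums came from 1 gene each. These were Cxcl12, Lyz2 and Lpl, the last named after its values were seen, at means of 3483, 15801 and 2500 CPM in FF. The part of these cell populations in the marker differences was not tested.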

How the data were processed

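RNA was sequenced from 6 cultures of primary BMSCs, 3 per group. The authors deposited gene counts, not normalized, and FPKM per library, per the file headers. Libraries were made with a stranded mRNA kit, per the labels' protocols, and the genome build is mm10, per the submitters' processing notes. For aligner, counting tool and strand setting the sources used here give nothing. The authors' log2 fold changes, p-values and adjusted p-values, per the file headers, were used only where named.

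Counts were tested over all 12830 genes with edgeR 4.0.16 in R 4.3.3 (TMM, filterByExpr, robust quasi-likelihood F test, no covariates) with Benjamini-Hochberg adjustment and a threshold of 0.05. The standard error is the log2 fold change over the square root of F, and intervals are 95%. Tests were checked on simulated data. Alternatives were DESeq2 1.42.0, limma-voom (limma 3.58.1), other scaling and filters, omission of single libraries, summed osteocalcin counts and a replicate block.

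Members and lists were chosen with earlier results of these data known. Named genes were all members, Rras2 and up to 4 called genes of each companion list (else 2 of highest mean CPM). Up to 2 called genes of each list of marrow stroma or other cell types were added. Further named genes were Bglap3 (not analysed here), Spp1, Runx2, Sp7, Alpl, Col1a1, Col1a2 and the 3 nearest profiles of each member of at least 5 CPM. A gene that this rule selects is not reported here. Coordinates and transcripts are GENCODE M21. For 45 rows without a symbol the name was taken from GENCODE by identifier.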

Additional observations from a re-analysis of the deposited data

How the results depend on the processing

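The number of markers called was 1 with all other scalings and filters and with the osteocalcin counts summed. It was 4 with DESeq2, 2 with the replicate block and 4 with limma-voom, and 1 to 4 when 1 library was left out. With 1 library left out, calls over all genes ranged from 268 to 1166, against 621. Those of companion genes ranged from 11 to 20, against 14. Those of markers of marrow stroma and other cell types ranged from 7 to 12, against 12. DESeq2 called 21 companion genes. Of 117 alternative values for the markers, 103 kept direction and side of the threshold. Another 13 passed where the reported fit did not, and 1 reversed. The filter on low counts removed no gene, so the 8 values without it repeat the reported fit and could not differ. TMM factors lay between 0.9863 and 1.008, so the values under other scalings could hardly differ either. Summing osteocalcin hardly changes the fits of the other markers. With 1 library left out Ifitm5 ranged from -0.0162 (without FF-2) to 0.1098 (without FF-3) on the log2 scale. Bbc3, close in profile to Phex, ranged from -0.2150 (without cKO-1) to 0.0206 (without cKO-3), against -0.08 in all libraries. Klf12, close to Pth1r, and Slc7a1, close to Ibsp, were called (edgeR adjusted p = 0.0203 and 0.0152). Omitting FF-1, FF-2, FF-3, cKO-2 or cKO-3 lost Klf12 (up to 0.108) and omitting FF-2 lost Slc7a1 (0.0961). A mean count of at least 100 removed Dmp1 and Ifitm5, which gave no value there.

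The replicate numbers are not stated to pair the samples, and same-numbered libraries had correlations of their deviations of -0.036, 0.091 and -0.099. With the replicate block Ibsp passed (log2 fold change -0.44, adjusted p = 0.000242), Mmp14 and Gpc1 passed (adjusted p = 0.0167 and 0.0441), Fkbp11 did not (0.0524), and 669 genes were called in all. Apart from Tnfsf11, no other named gene changed its call. Counts per library were 21 to 267 for Bglap, Bglap2, Dmp1 and Ifitm5, the lowest of the markers. In the osteocyte list the block called 1 higher and 1 lower, Tnfsf11 (0.0342) and Mmp14.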
